A study of Mus musculus with 20 samples.

Results

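Corin and the natriuretic peptide system were followed in mouse liver through 8 genes, of the 34741 gene names on the array, chosen by name as the peptide precursors, the proteases that cut them and the receptors that bind them. The genes are Corin, Furin, Nppa, Nppb, Nppc, Npr1, Npr2 and Npr3, each read by 1 of the 55681 non-control probes. Corin had been picked for its response to estradiol in these same wild-type arrays, so its values in any comparison that uses wild-type estradiol livers are given as a description, with no test. The other 7 genes were chosen for their place in the pathway.

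The 20 livers came from ovariectomized female mice in 4 groups of 5 animals, with 1 array per animal. The groups were ERa-/- mice (called null) given 1 mg/kg of estradiol (E2, the chief estrogen of the ovary) by gavage, null mice gavaged with placebo, ERa+/+ mice (called wild type) gavaged with the same dose of E2, and wild-type mice gavaged with placebo, which was castor oil with 5% ethanol. All had lost their ovaries at 4 weeks of age, were gavaged once at 9 weeks, and were killed 4 hours later under ketamine and xylazine. Both genotypes came from the same parents, the nulls lacked the receptor in the whole body and not in liver alone, and the sources used here do not give the strain. Crossing genotype with treatment addresses which E2 responses of the liver depend on estrogen receptor alpha.

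Natriuretic peptides are hormones that lower blood pressure by promoting salt and water loss and by relaxing vessels. Heart muscle makes the precursors of the atrial and B-type peptides (Nppa and Nppb), and endothelium and other cells make the C-type precursor (Nppc). Corin, a serine protease anchored in the cell membrane and best known from heart muscle, cuts the atrial precursor into its active form, and furin, a convertase of the secretory pathway in nearly all cells, cuts the other precursors. Npr1 and Npr2 are receptors with a guanylyl cyclase inside the cell that makes cyclic GMP, Npr1 mainly for the atrial and B-type peptides and Npr2 for the C-type peptide. Npr3 lacks the cyclase and is known chiefly for clearing the peptides.

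The Corin probe, which carries the main finding, lies at chr5:72692288-72692347 on the minus strand of mm9. The Nppa probe, which reads the substrate of corin and was the only one of the 8 printed at several spots, lies at chr4:147376024-147376083 on the plus strand. The first 30 of the 60 bases of each are shown, in lower case throughout because no position in them is set apart. Which exon or untranslated region a probe lies in was not analysed here.
Corin probe: ttaagcccagtggcttagggggcacatttc
Nppa probe: cttcctgccttcatctatcacgatcgatgt

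All 8 genes had a promoter window in the RefSeq table of build GRCm38.p6, from 250 bases before to 50 bases after the annotated start, and Furin had 2. The bases before the start of Corin, at chr5:72504541-72504790 on the minus strand of that build, are shown because Corin is the gene that responded. The capitals mark a CCAAT box that begins 17 bases before the start.
Corin upstream: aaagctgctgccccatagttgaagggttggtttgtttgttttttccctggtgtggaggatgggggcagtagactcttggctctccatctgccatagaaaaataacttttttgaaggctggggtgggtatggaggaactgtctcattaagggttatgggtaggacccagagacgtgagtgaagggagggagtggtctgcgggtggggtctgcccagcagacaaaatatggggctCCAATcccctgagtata
The windows were searched on both strands for the palindromic estrogen response element (GGTCA followed, after any 3 bases, by its reverse complement), for AGGTCA (an extended arm of that element, which can overlap it), for the GC box GGGCGG, for the TATA box written as TATAAA and for the CCAAT box. The background was 32851 windows of the table, with a chromosome left out. The full element was in 0 of the 9 windows of these genes and in 0.07% of the background windows. AGGTCA was in 0 of the 9 and in 16.3% of the background windows. CCAAT, present near Corin, was in 37.4% of the background windows. A match is a stretch of letters, and its absence says only that these letters are not in these windows.

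Corin was high in wild-type livers given E2 and at or near background in every other group. Levels are log2 intensities relative to the 75th percentile of the array. Wild-type E2 livers read -1.23, -1.43, -1.80, -2.08 and -1.95, against -4.59, -5.10, -6.57, -5.97 and -4.83 in wild-type placebo livers. The lowest E2 liver lay above the highest of the 15 other livers by 1.40, so the wild-type groups did not overlap. In units of processed intensity, which has the background already removed, the probe gave 89.0 to 155 in wild-type E2 livers and 3.96 to 14.2 in wild-type placebo livers.

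The array files call a spot well above background when it stands clear of the spread of the local background. Corin met this on 5 of 5 arrays of wild-type E2 livers and on 0 of 5 of wild-type placebo livers, so the placebo level is only a bound. Each placebo reading was then raised at least to the weakest signal on its array still called above background. Corin was then 8.12-fold higher (log2 3.02) in wild-type E2 livers than in wild-type placebo livers, and 7.49-fold higher without wild-type E2 liver 1. The weakest called signal is not the detection limit of every spot, so these folds are not strict lower limits. The measured means were -1.70 ± 0.36 in wild-type E2 livers and -5.41 ± 0.83 in wild-type placebo livers (SD, n = 5 each). Their fitted log2 difference was 3.71 ± 0.40 (SE), which is not a bound either. Normexp background correction gave 1.33 and the authors' deposited table of log2 values gave 1.64, both higher under E2 and both smaller by more than 1.5 times. Corin passed the filter on dim probes only through the wild-type E2 group.

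**Figure D1:**
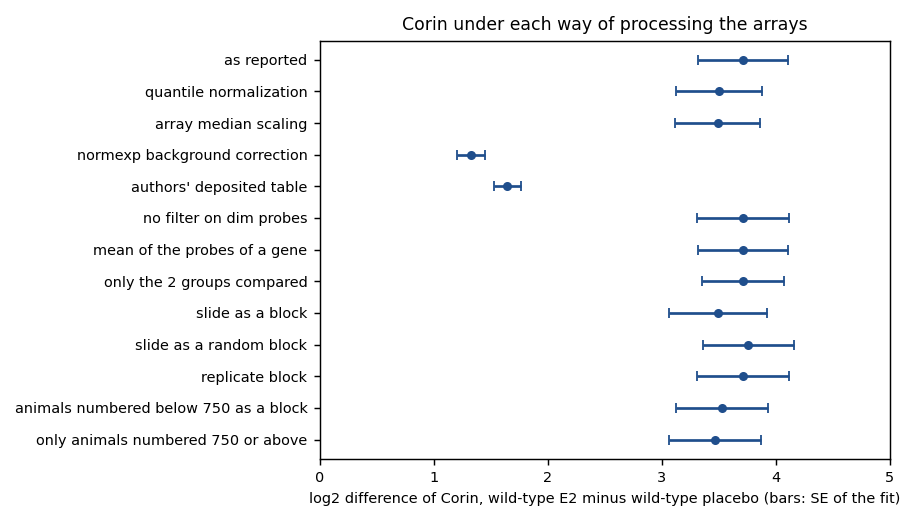
Log2 difference of Corin between wild-type E2 and wild-type placebo livers as reported and under 12 alternative ways of processing, with the SE of each fit as bars and animals numbered as in the labels. Every setting drawn lies above 0, with normexp background correction at 1.33 and the authors' deposited table at 1.64 below the rest. Corin was picked for this response in these same arrays, so the direction is a description.

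In null livers Corin was at or near background under both treatments. Null E2 livers read -4.41, -5.03, -4.36, -5.26 and -4.97, against -5.64, -3.48, -3.92, -4.66 and -5.25 in null placebo livers. The null groups overlapped, and the probe was well above background on 1 of 5 null E2 arrays and on 2 of 5 null placebo arrays. The log2 difference was -0.21 ± 0.40 (SE). It compares readings that were mostly not well above background, of a gene kept only through the wild-type E2 group. For that reason neither a difference nor its absence is read from it, and no test is given. The fitted difference between the E2 effects in wild types and in nulls was 3.93 ± 0.56 (SE). It was 1.35 with normexp background correction and 1.70 in the authors' deposited table. Apart from the wild-type E2 livers, its readings were mostly not well above background, so its size is not taken as measured. That difference shares the wild-type E2 arrays that picked the gene and is given without a test.

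Under placebo, Corin averaged -4.59 ± 0.90 in null livers and -5.41 ± 0.83 in wild-type livers (SD, n = 5 each). The groups overlapped, and the probe was well above background on 2 of 5 null placebo arrays and on 0 of 5 wild-type placebo arrays, so no difference is read from these levels. Under E2, null livers averaged -4.81 ± 0.40 and wild-type livers -1.70 ± 0.36 (SD, n = 5 each), with a fitted difference of -3.11 and no overlap between the groups.

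**Figure D2:**
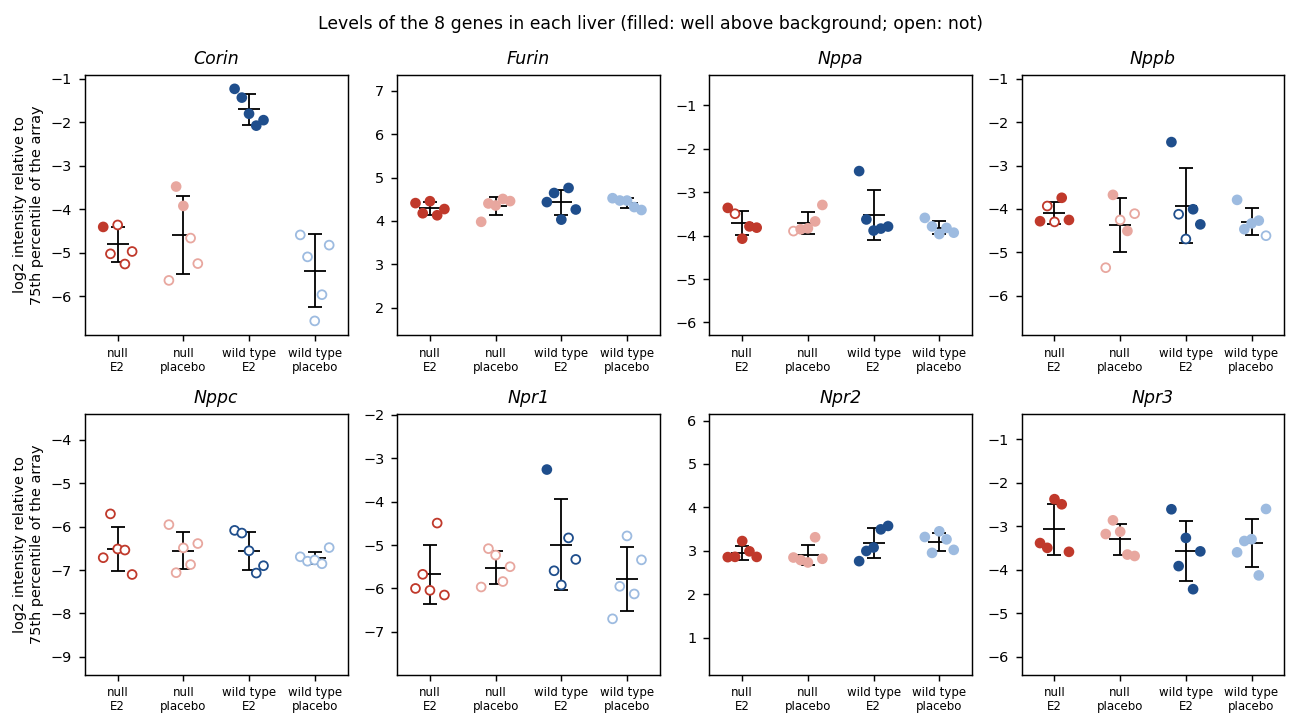
Level of each of the 8 genes in each of the 20 livers, as log2 intensity relative to the 75th percentile of the array (vertical axis, spanning 6 log2 units in every panel), with the group mean and SD of 5 livers as black bars. Filled points are well above background and open points are not, and for Corin the 5 wild-type E2 livers stand apart from the other 15.

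The other 7 genes gave no called difference. Among the 5 of them that passed the filter on dim probes, 0 passed the test at an adjusted p of 0.05 for E2 against placebo in wild types, where 0.318% of all 21996 genes were called. The same 5 gave 0 calls for E2 against placebo in nulls (0.00455% of all genes) and 0 for null against wild-type livers given placebo (0.0727% of all genes). Likewise 0 of 5 passed for the difference between the E2 effects (0.164% of all genes) and 0 of 5 for null against wild type under E2 (0.464% of all genes). At an unadjusted p under 0.05 the limma count for these 5 genes was also 0 in each of the 5 comparisons, where 6.06% to 10.12% of all genes passed. Without wild-type E2 liver 1 that count was 2 of 5 for null against wild type under E2, namely Npr2 and Npr3, and 0 of them passed the adjusted test. The 5 genes apart from Corin had log2 differences from -0.17 to 0.37 for E2 in wild types, with a median of 0.019, against a median of 0.0022 over all genes. Beside these shares of all genes, a count of 0 among 5 genes is at the background.

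**Figure D3:**
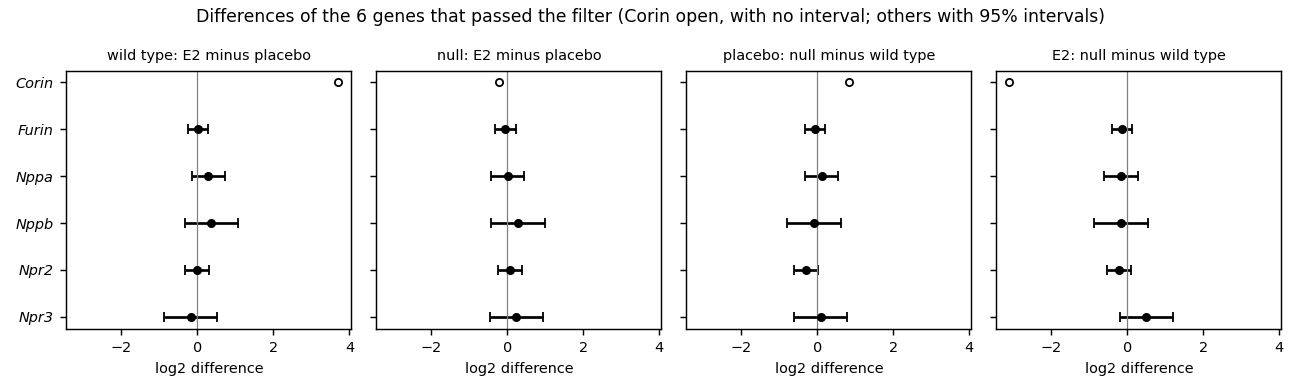
Log2 differences of the 6 genes that passed the filter, in 4 comparisons. Corin is drawn as open points with no interval, at 3.71 for E2 minus placebo in wild types, and the other 5 genes as filled points with 95% intervals of the limma fit, all of which span 0.

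Furin read above the 75th percentile of the array, and so above 0, in every liver and was well above background on all 20 arrays. It read 4.41, 4.18, 4.46, 4.13 and 4.27 in null E2 livers, 3.98, 4.40, 4.36, 4.51 and 4.46 in null placebo livers, 4.43, 4.64, 4.03, 4.76 and 4.26 in wild-type E2 livers, and 4.52, 4.47, 4.47, 4.32 and 4.25 in wild-type placebo livers. All 4 groups overlapped. The E2 difference in wild types was 0.02 ± 0.13 (SE, adjusted p = 0.979), with a 95% interval from -0.25 to 0.29, and that in nulls was -0.05 ± 0.13 (adjusted p = 0.981).

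Of the precursors, Nppa and Nppb were dim and Nppc was not well above background on any of the 20 arrays. Nppa, the substrate of corin, read -3.36, -3.50, -4.07, -3.79 and -3.82 in null E2 livers and -3.90, -3.86, -3.83, -3.67 and -3.30 in null placebo livers. It read -2.52, -3.63, -3.88, -3.84 and -3.79 in wild-type E2 livers and -3.59, -3.79, -3.96, -3.82 and -3.93 in wild-type placebo livers. Liver 1 of the wild-type E2 group was the highest of the 20, and the other 4 of that group fell within the range of the null and placebo livers.

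Nppa was printed at 10 spots on each array, so the error within an array could be read. The SD between its spots ran from 0.180 to 1.04, with a median of 0.285, and 176 of the 200 spots were well above background. The largest SD belonged to null placebo liver 5, where the spots ran from -4.31 to -0.71. The E2 difference in wild types was 0.29 ± 0.21 (SE, adjusted p = 0.736), with a 95% interval from -0.16 to 0.73, and it was 0.03 without wild-type E2 liver 1. In nulls it was 0.0034 ± 0.21 (adjusted p = 0.998).

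Nppb read -4.28, -3.93, -4.30, -3.74 and -4.25 in null E2 livers and -5.35, -3.68, -4.25, -4.50 and -4.11 in null placebo livers. It read -2.46, -4.12, -4.69, -4.01 and -4.35 in wild-type E2 livers and -3.79, -4.47, -4.33, -4.27 and -4.62 in wild-type placebo livers. The groups overlapped, and the probe was well above background on 3 of 5 null E2 arrays, 2 of 5 null placebo arrays, 3 of 5 wild-type E2 arrays and 4 of 5 wild-type placebo arrays. Its E2 difference in wild types was 0.37 ± 0.34 (SE, adjusted p = 0.798) with all livers and 0.00074 without wild-type E2 liver 1. Nppc ran from -7.10 to -5.71 in null livers given E2, from -7.06 to -5.95 in null livers given placebo, from -7.07 to -6.09 in wild-type E2 livers and from -6.86 to -6.48 in wild-type placebo livers, none of them well above background, and was not tested.

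The array with the highest Nppa, Nppb and Npr1 readings, wild-type E2 liver 1, stood apart from the other 19. It had 70.0% of its spots well above background, against 51.6% to 61.3% on the others. Among the 5 wild-type E2 arrays it was the highest for 51.9% of the probes with a mean level under -2, with a median excess of 0.398 over the median of the other 4, and for 17.6% of the probes with a mean level of 2 or more. What part this has in the readings of the dim genes was not tested. Corin averaged -1.81 ± 0.28 over the other 4 wild-type E2 livers (SD, n = 4), and its fitted difference from placebo without liver 1 was 3.60.

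Of the receptors, Npr2 and Npr3 were well above background on every array, while Npr1 was hardly seen. Npr1, the receptor of the atrial and B-type peptides, was well above background on 1 of 20 arrays, that of wild-type E2 liver 1, and was not tested. It read -5.999, -5.67, -6.04, -4.49 and -6.15 in null E2 livers, -5.97, -5.08, -5.23, -5.84 and -5.50 in null placebo livers, -3.26, -5.59, -5.92, -4.84 and -5.33 in wild-type E2 livers, and -6.70, -5.95, -4.79, -6.13 and -5.34 in wild-type placebo livers. Apart from the -3.26 these readings were not well above background. The array files place its 60 bases across 494 bases of mm9, at chr3:90259171-90259664, whereas the other 7 probes each lie in an unbroken stretch.

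Npr2, the receptor of the C-type peptide, read above the 75th percentile of the array in every liver. It read 2.86, 2.86, 3.23, 2.99 and 2.86 in null E2 livers, 2.85, 2.79, 2.73, 3.31 and 2.82 in null placebo livers, 2.76, 2.998, 3.08, 3.50 and 3.57 in wild-type E2 livers, and 3.32, 2.95, 3.45, 3.27 and 3.02 in wild-type placebo livers. The groups overlapped. Under placebo it averaged 2.90 ± 0.23 in null livers and 3.203 ± 0.21 in wild-type livers (SD, n = 5 each), and the difference of -0.30 ± 0.15 (SE) did not pass the test (adjusted p = 0.510). Under E2 the difference between null and wild type was -0.22 (adjusted p = 0.665), and without wild-type E2 liver 1 it was -0.33 (adjusted p = 0.601). Its E2 difference in wild types was -0.02 ± 0.15 (SE, adjusted p = 0.981), with a 95% interval from -0.34 to 0.30.

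Npr3, the clearance receptor, was well above background on all 20 arrays at levels below that percentile. It read -3.39, -3.50, -2.38, -2.50 and -3.59 in null E2 livers, -3.18, -2.86, -3.13, -3.65 and -3.69 in null placebo livers, -2.61, -3.92, -3.27, -4.45 and -3.58 in wild-type E2 livers, and -3.60, -3.34, -3.30, -4.13 and -2.60 in wild-type placebo livers. The SD within a group reached 0.69, in wild-type E2 livers, and all groups overlapped. The E2 difference was -0.17 ± 0.33 (SE, adjusted p = 0.924) in wild types, or -0.41 (adjusted p = 0.943) without wild-type E2 liver 1, and 0.23 ± 0.33 (adjusted p = 0.962) in nulls. Under E2 the difference between null and wild type was 0.50 ± 0.33 (SE, adjusted p = 0.658), and without that liver it was 0.73 (adjusted p = 0.581).

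Genes that work around this system were followed in 5 lists of 66 genes, written from textbook knowledge and from the order of genes along the chromosome. Of these, 47 were measured, and limma called 0 of them in any of the 5 comparisons. At an unadjusted p under 0.05 the count was 10 of 47 (21.3%) for E2 in wild types, against 8.28% of all genes, and 3 of 47 (6.38%) for E2 in nulls, against 6.06%. It was 6 of 47 (12.8%) for the difference between these effects, against 7.40% of all genes. It was 7 of 47 (14.9%) for null against wild-type placebo livers, against 10.12%, and 13 of 47 (27.7%) for null against wild-type E2 livers, against 9.63%. These shares are a description of the lists and were not tested. The values below are of genes that did not pass the test. The genes named are among the 3 of each list with the smallest unadjusted p for E2 in wild types, unless said otherwise.

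Other genes listed for processing or clearing these peptides showed small differences, with 6 of 7 measured and a median of -0.0027 for E2 in wild types. Pcsk6, a convertase known to activate corin itself, averaged 5.16 ± 0.16 in wild-type E2 livers and 4.89 ± 0.16 in wild-type placebo livers (SD, n = 5 each). The difference was 0.27 (adjusted p = 0.449), and the groups overlapped. Pcsk5 and Pcsk7, related convertases, differed by 0.07 and -0.03.

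Of the genes listed under making, obeying or breaking down cyclic GMP, 16 of 17 were measured. For E2 in wild types 10 of them lay above 0, with a median of 0.08, against 0.0022 over all genes. Mrvi1, a target of the cyclic GMP-dependent kinase, averaged -1.52 ± 0.09 in wild-type E2 livers and -1.98 ± 0.28 in wild-type placebo livers (SD, n = 5 each), a difference of 0.45 (adjusted p = 0.295). Gucy1a1 and Gucy1b1, the subunits of the soluble guanylyl cyclase that answers nitric oxide rather than the peptides, differed by 0.44 (adjusted p = 0.412) and 0.33 (adjusted p = 0.615). Of the 47 list genes, Pde6d, which was named after its values were seen, came nearest to the threshold. It was listed by its name, and a part in breaking down cyclic GMP is not claimed for it. Pde6d averaged -0.11 ± 0.11 in null E2 livers and -0.59 ± 0.15 in wild-type E2 livers (SD, n = 5 each). The difference of 0.48 did not pass the test (adjusted p = 0.0532).

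Corin belongs to the type II transmembrane serine proteases, of which 8 of 17 others were measured. For E2 in wild types, 7 of these 8 lay above 0, with a median of 0.26, against a median of 0.0022 over all genes. For E2 in nulls 1 of 8 did, with a median of -0.07, against -0.012 over all genes. The 8 include Tmprss9, well above background on only 2 of 5 wild-type E2 and 1 of 5 wild-type placebo arrays. These counts are a description and were not tested. None was called. Tmprss2 averaged 0.18 ± 0.45 in wild-type E2 livers and -0.55 ± 0.45 in wild-type placebo livers (SD, n = 5 each), a difference of 0.73 (adjusted p = 0.451). Tmprss4 differed by 0.86 (adjusted p = 0.473) and Tmprss3 by 0.42 (adjusted p = 0.691), and the groups overlapped for all 3. Outside that choice, Hpn, which encodes hepsin, a protease known from hepatocytes, averaged 7.21 ± 0.06 in wild-type E2 livers and 7.20 ± 0.09 in wild-type placebo livers (SD, n = 5 each).

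The renin-angiotensin-aldosterone system raises blood pressure and so opposes the natriuretic peptides, and 11 of 15 of its genes were measured. Enpep, the aminopeptidase that breaks down angiotensin II, ran from 2.17 to 2.46 in wild-type E2 livers, with a median of 2.30, and from 2.52 to 2.99 in wild-type placebo livers, with a median of 2.81. It was the only one of the 47 list genes whose wild-type E2 and placebo livers did not overlap, which held for 1.5% of all genes, and its difference of -0.47 ± 0.12 (SE) did not pass the test (adjusted p = 0.148). Atp6ap2, known as the prorenin receptor, differed by -0.22 (adjusted p = 0.547). Agt, the angiotensin precursor that the liver makes, was also outside that choice and averaged 5.83 ± 0.30 in wild-type E2 livers and 5.83 ± 0.17 in wild-type placebo livers (SD, n = 5 each).

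**Figure D4:**
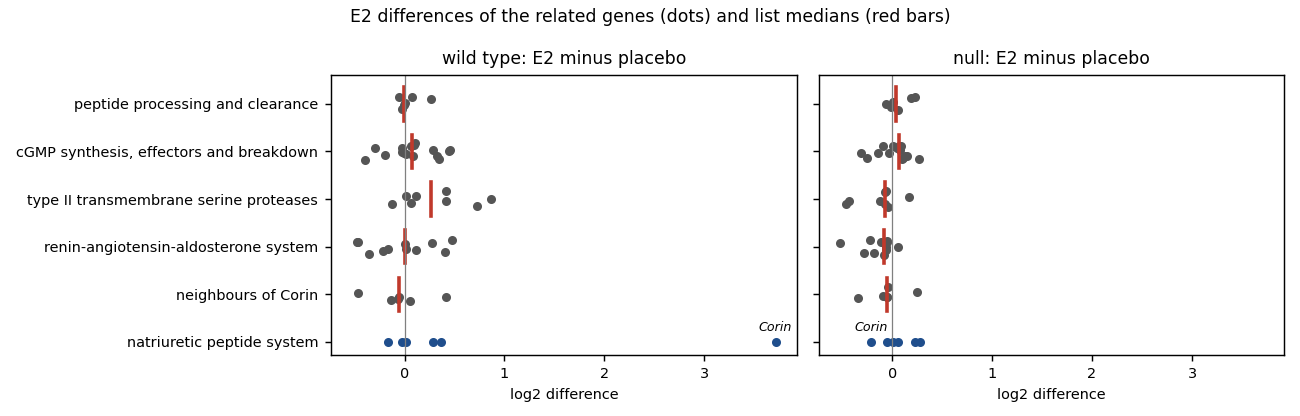
Log2 difference between E2 and placebo livers of every measured gene of the 5 related lists (grey dots, red bars for list medians) and of the 6 measured genes of the natriuretic peptide system (blue dots), in wild types on the left and nulls on the right. Corin lies at 3.71 in wild types, while the related genes lie within 1 log2 unit of 0 in both panels.

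Of 10 listed genes near Corin on chromosome 5, which leave out some neighbours such as Zar1, 6 were measured. For E2 in wild types 0 of these 6 were called, where 0.318% of all genes were. The nearest measured, Atp10d, has its probe at chr5:72689634-72689693 on the plus strand of mm9, 2594 bases from that of Corin, and is annotated as a transcribed pseudogene in the RefSeq table. It averaged -2.13 ± 0.29 in wild-type E2 livers and -2.54 ± 0.43 in wild-type placebo livers (SD, n = 5 each), a difference of 0.42 (adjusted p = 0.561) with overlapping groups. Nipal1 and Nfxl1 differed by -0.47 (adjusted p = 0.681) and -0.13 (adjusted p = 0.836).

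The genes whose levels were most like those of Corin were ranked by Pearson's r over the 20 arrays, as a description, since the 5 wild-type E2 arrays set these values for any gene with an E2 response. The 6 nearest were Slc34a2, a phosphate transporter, at 0.916, Synpo, an actin-binding protein, at 0.913, 9430038I01Rik at 0.913, the transcript ENSMUST00000040703 at 0.909, Krt79, a keratin, at 0.908 and Gpat3, an enzyme of triglyceride synthesis, at 0.904. Slc34a2 was, like Corin, well above background on 5 of 5 wild-type E2 arrays and on 0 of 5 wild-type placebo arrays. Among the 21969 genes ranked, the other members stood at rank 1506 for Nppb, 2147 for Nppa, 3891 for Furin, 8802 for Npr2 and 12689 for Npr3.

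The genotype labels were checked with Esr1, which encodes estrogen receptor alpha. It averaged -1.63 in null E2 livers and 0.60 in wild-type E2 livers, 4.70-fold lower in nulls (adjusted p = 1.80e-05), and -1.61 in null placebo livers and 0.39 in wild-type placebo livers, 4.00-fold lower (adjusted p = 0.000482). Its probe stayed above background on all 20 arrays, and the deleted stretch of the gene is not named in the labels. All 7 hepatocyte markers were above background on all 20 arrays. Of 7 heart muscle markers, which matter here because heart muscle makes corin and 2 of the precursors, Myh6, Tnnt2 and Myl4 were measured. Myl7, Tnni3, Actc1 and Ryr2 were not kept and were above background on at most 7, 2, 1 and 0 arrays. The summed linear level of the 3 measured ran from 0.762 to 1.31 in wild-type E2 livers and from 0.852 to 1.14 in wild-type placebo livers. For E2 in wild types 0 of them were called. All 3 lay above 0 for E2 in wild types, with a median log2 difference of 0.40, and 1 of 3 did for E2 in nulls, with a median of -0.05. So did 7 of 7 sinusoidal endothelium, 6 of 6 Kupffer cell, 4 of 4 T and NK cell, 3 of 3 adipose and 4 of 4 red cell markers for E2 in wild types. For hepatocytes it was 3 of 7, for stellate cells 3 of 7 and for bile duct 3 of 6. For kidney and adrenal it was 2 of 3, and for mesothelium 2 of 4. For E2 in nulls 6 of 6 Kupffer cell markers also lay above 0, with a median of 0.18, against 0.20 in wild types. In nulls it was 3 of 7 for sinusoidal endothelium, 2 of 4 for T and NK cells, 1 of 4 for red cells and 0 of 3 for adipose. The median over all genes was 0.0022 for E2 in wild types and -0.012 for E2 in nulls. Adipose markers, 3 of 5 measured, summed to 4.24 to 5.75 in wild-type E2 livers and 2.78 to 4.68 in wild-type placebo livers, with 0 called. Red cell markers summed to 220 to 341 in wild-type E2 livers and 146 to 211 in wild-type placebo livers, with 0 of 4 called. They summed to 202 to 302 in null E2 livers and 197 to 287 in null placebo livers. Under placebo 1 of 4 was called for null against wild type, where 0.0727% of all genes were called. The part of any of these marker lists in the Corin result was not tested. In a piece of whole liver, more cells of a type and more RNA per cell cannot be told apart.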

How the data were processed

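Liver RNA of 20 animals was labelled with Cy3 and hybridised to 20 1-colour arrays on 4 slides. Per the file headers, Agilent Feature Extraction 10.10.1.1 made the processed intensity of each spot, background-subtracted and detrended within the array, and placed probes on mm9. The authors deposited, beside the scans, log2 values of 32526 probes, with column medians of 7.85, whose columns followed the log2 signal of their arrays at a correlation of 0.9987 or more across probes. It was used as an alternative. Its scale and direction were read from that comparison, with no centring of genes seen, and the submitters' processing notes list limma without a version.

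Levels are log2 processed intensity minus the array's 75th percentile over 59305 non-control spots. Non-uniform spots were left out, and no spot was saturated. Spots of a probe were averaged. A probe was kept if some group had 4 or more of its 5 arrays well above background (30959 of 55681), and the brightest kept probe stood for a gene (21996 genes). A limma fit (version 3.58.1, R 4.3.3) of the 4 group means to the 20 arrays gave 2-sided tests of 5 contrasts, each adjusted by Benjamini-Hochberg across the genes measured. SE is that of the fit. Precision is limited by 5 animals per group. The sources used here do not say which animals shared a cage.

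The genes, the related lists and the tests were chosen with earlier results of these data known. All 8 genes are named, with up to 3 per related list of smallest p for E2 in wild types, and the 6 most like Corin by each of 2 correlations. Of the genes this rule names, 3 are not reported here. Alternatives changed the scaling, the background correction, the dim filter, the probe rule, the arrays in the fit, and the blocks by slide, replicate number and animal number.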

Additional observations from a re-analysis of the deposited data

Results flagged for a closer look

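In 4 of the 32 sets of 5 livers (8 genes in 4 groups), the highest or lowest liver stood apart from the other 4 by more than 0.71 of the whole range of the set. Chance alone gives this in about 1 of 20 such sets. Nppa in wild-type E2 liver 1 read -2.52, above the other 4 of its group. Npr1 in null E2 liver 4 read -4.49, above the other 4, and none of the 5 was well above background. Npr2 in null placebo liver 4 read 3.31, above the other 4. Furin in null placebo liver 1 read 3.98, below the other 4.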

How the results depend on the processing

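Corin was higher in wild-type E2 livers than in wild-type placebo livers under each alternative that gave it a value. Corin was picked for this response in these same arrays, so the direction was set in advance. The values describe how its size depends on the processing and are no further evidence for the response. Its log2 difference of 3.71 was 1.33 with normexp background correction and 1.64 in the authors' deposited table, and the difference between the E2 effects, 3.93, was 1.35 and 1.70. The deposited table followed the signal before background subtraction across probes, and normexp adds an offset of 50. What part either has in the smaller Corin values was not tested. Leaving out 1 liver at a time gave 3.42 to 3.92 for the E2 effect in wild types and 3.64 to 4.19 for the difference between the E2 effects. Within slides 1, 2 and 4, which held both wild-type groups, Corin differed by 3.34, 4.45 and 2.64. These rest on 2, 2 and 1 E2 livers against 1 placebo liver on each slide, and no placebo reading was well above background. Of 25 tested differences of the 5 genes apart from Corin, 16 changed sign in at least 1 of 33 alternatives, 0 were called in any, and the smallest adjusted p was 0.372. The related genes gave 0 calls for E2 in wild types in every alternative run. Scaling each array to its median moved the median of all genes by -0.22 for E2 in wild types, and Corin was then at 3.49. With a filter that asked for all 20 arrays, Corin, Nppa and Nppb gave no value. The replicate numbers were not used as pairs in the main fit. Correlations of same-numbered deviations ran from -0.16 to 0.24, over 0.1 in 12 of 30 pairs. Their median was 0.086, against -0.021 for other numbers, which does not settle whether the numbers pair animals. With a replicate block Corin differed by 3.71 ± 0.41 (SE) and 0 of the 5 other genes were called. Over all genes that block gave 90 calls for E2 in wild types, against 70 without it. It gave fewer elsewhere, with 0 against 1 for E2 in nulls and 35 against 36 for the difference between the E2 effects. For null against wild type it gave 13 against 16 under placebo and 92 against 102 under E2. Values for Corin, Nppa, Nppb and Npr1 lie close to background, which limits what these arrays can show of them.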

Other observations

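After each group's mean was removed, so that only differences between livers of the same group remained, the genes that varied most like Corin over the 20 arrays included the probe A_55_P2093014 (Pearson's r of 0.821), Slco1a4 (0.754), Nt5e (0.728) and Leng1 (0.714). Slco1a4 is an organic anion transporter and Nt5e makes adenosine from AMP. Corin was not above background on 12 of the 20 arrays, so most of these deviations are of readings near background, and the values are a description only.

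Of the serine proteases related to Corin, Tmprss9 and Tmprss4 were named after their values were seen. Tmprss9 was well above background on 5 of 5 null E2 arrays and 4 of 5 null placebo arrays, against 2 of 5 wild-type E2 arrays and 1 of 5 wild-type placebo arrays, and was kept only through the null groups. Tmprss4, above background on all 20 arrays, averaged -2.08 ± 0.68 in null placebo livers and -3.41 ± 0.43 in wild-type placebo livers (SD, n = 5 each), a difference of 1.33 that did not pass the test (adjusted p = 0.158).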
